A study of Homo sapiens with 4 samples.

Results

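The genes described here are 9 tight junction genes, LSR, MARVELD2, OCLN, CLDN1, CLDN4, CLDN7, F11R, TJP1 and TJP3, of 59885 genes in the authors' deposited table of CFL1 knockout against control cells. They were chosen by symbol as genes of bicellular and tricellular tight junctions, and that choice was made with fold changes of this same contrast already known. Differences between knockout and control are therefore given as descriptions for these 9 genes, and nothing is read from how many of them were called. All 9 had a base mean above 0 and an adjusted p.

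The cells of all 4 samples were labelled PANC-1, an established human pancreatic ductal adenocarcinoma line, either as control cells or with CFL1 knocked out, and each group had 2 libraries of total RNA extracted with Trizol. CFL1 encodes cofilin-1, which severs actin filaments. How the knockout was made, what the control cells had received, whether a library came from 1 clone or from a mixed population, and whether the libraries of a group came from separate cultures are not given in the sources used here, so spread between libraries may be technical. Values of single libraries are not among the table's columns. Reads of each library were worked back from the base means, and a normalized count below is those reads divided by the library's size factor. The recovered libraries are called A and B within each group, and these letters are not tied to the numbers in the sample labels.

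Tight junctions seal the gap between neighbouring epithelial cells and limit the passage of ions and solutes. Claudins form the strands between a pair of cells, occludin and the junctional adhesion molecule encoded by F11R sit in the same belt, and the cytoplasmic proteins ZO-1 and ZO-3 tie the strands to actin. Where 3 cells meet, LSR, a member of the angulin family that is also known as the lipolysis stimulated lipoprotein receptor, recruits tricellulin, the product of MARVELD2.

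The targeted gene was read first. CFL1 had normalized counts of 6276 and 13761 in control libraries A and B, and of 2285 and 2487 in knockout libraries A and B. Both knockouts lay below both controls, and in the authors' deposited table, fitted with DESeq2, CFL1 had a log2 fold change of -2.07 (SE 0.454, adjusted p = 0.00168). The recovered reads, which leave out the 169 genes whose base mean reached 10000, summed to between 12337305 and 14623512 per library. Control B differed widely from the remaining libraries: over 16349 genes with an adjusted p and recovered reads, 1294 were at least 4-fold higher in control B than in control A, which is 7.91% of them, and 2093 (12.8%) were at least 4-fold lower. Whether control B held the same cells as the other libraries was not tested, and each value of knockout against control that rests on it is to be read with that limit. For the 9 genes, differences are therefore given against each control library.

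Among the tight junction genes, LSR, MARVELD2, OCLN and CLDN1 had low normalized counts in control A and both knockouts, between 10.6 and 48.7. Their levels in control B were much higher. CLDN4 and F11R were also highest in control B, with higher normalized counts than those 4 genes in control A and both knockouts. TJP1 differed by less, and CLDN7 and TJP3 had their lowest level in control B. Control B was at least 4-fold above control A for 6 of the 9 genes, and for none of the 9 did the knockout mean differ by 2-fold from control A, where 2.41% of the 16349 genes were at least 2-fold below control A and 3.17% at least 2-fold above it. LSR, 1 of the 9, was called at an adjusted p under 0.05 (DESeq2, Benjamini-Hochberg) in the authors' deposited table, where 0.559% of 16629 genes were called and 0.421% were called lower in the knockouts.

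**Figure D1:**
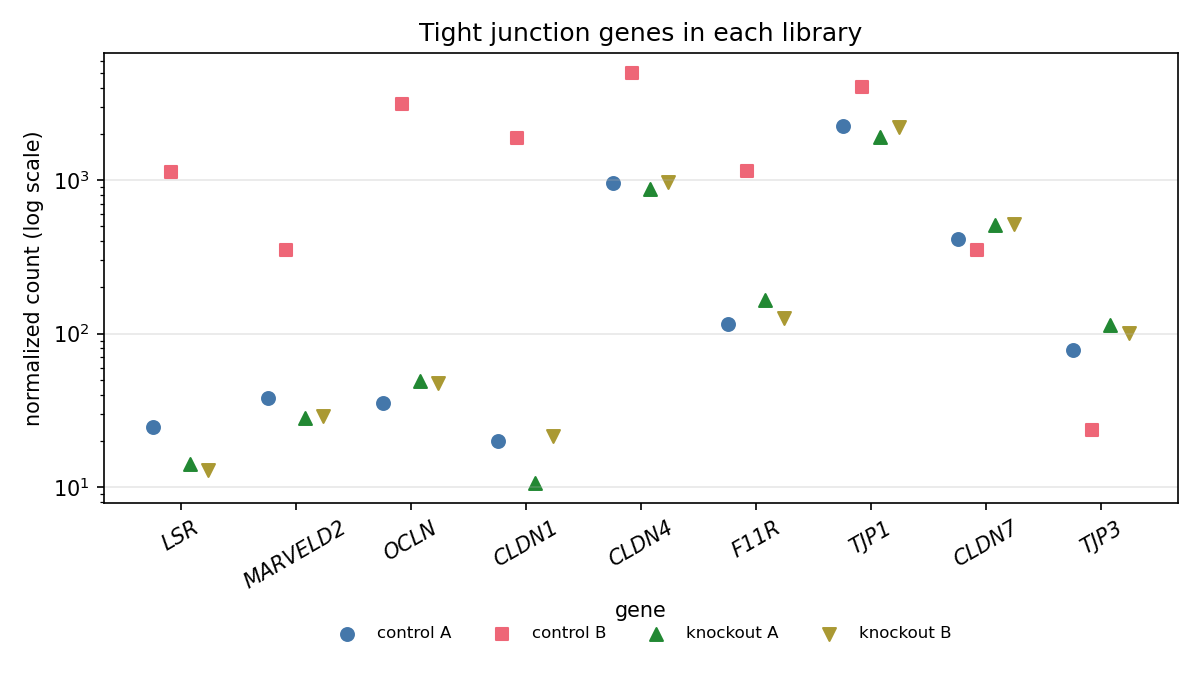
Normalized count (log axis) of each of the 9 tight junction genes in the 4 libraries, where each point is 1 library. For LSR, CLDN1 and OCLN the control B point lies between 1136 and 3124 while the other 3 points lie between 10.6 and 48.7, and for CLDN7 and TJP3 control B is the lowest point.

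At the tricellular contacts, LSR (ENSG00000105699, chromosome 19) had normalized counts of 24.5 (control A), 1136 (control B), 14.2 (knockout A) and 12.9 (knockout B). Both knockouts lay below both controls, but the step from control A to the knockouts was small beside the 46.3-fold gap between the control libraries. LSR rested on 27 reads in control A, with an exact Poisson 95% interval of 17.8 to 39.3 reads, and on 16 and 12 reads in the knockouts, with intervals of 9.15 to 26.0 and 6.20 to 21.0. These intervals cover counting error only, and no test of control A alone against the knockouts was read from them. On the log2 scale of normalized count + 1, the knockout mean of LSR differed from control A by -0.81 and from control B by -6.29. The authors' deposited table gives LSR a log2 fold change of -5.42 (SE 1.41, DESeq2 adjusted p = 0.0260), between these values and nearer to that against control B.

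MARVELD2 (ENSG00000152939, chromosome 5), the partner that LSR brings to these contacts, had normalized counts of 38.2 and 349.8 in controls A and B and of 28.3 and 29.1 in knockouts A and B. Both knockouts again lay below both controls, and control B was 9.16-fold above control A. The knockout mean differed by -0.40 log2 from control A and by -3.56 log2 from control B. MARVELD2 was not called: the authors' deposited table gives it a log2 fold change of -2.75 (SE 1.09, DESeq2 adjusted p = 0.256).

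Among the strand proteins of the bicellular junction, OCLN (ENSG00000197822, chromosome 5), which encodes occludin, had normalized counts of 35.4 (control A), 3124 (control B), 48.7 (knockout A) and 47.4 (knockout B). The knockouts lay above control A and far below control B, so the groups overlapped, and the controls differed 88.1-fold. The sign for OCLN depended on the control library: the knockout mean differed by 0.43 log2 from control A and by -5.99 log2 from control B. The authors' deposited table gives OCLN a log2 fold change of -5.04 (SE 2.06), nearly that of LSR but with a wider error, and a DESeq2 adjusted p of 0.265.

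CLDN1 (ENSG00000163347, chromosome 3), a claudin of sealing strands, had normalized counts of 20.0 (control A), 1890.0 (control B), 10.6 (knockout A) and 21.6 (knockout B). Knockout B was above control A and knockout A below it, and the controls differed 94.5-fold, the widest gap of the 9 genes. The 2 knockouts also differed most here, by 0.96 log2, on 12 and 20 reads whose Poisson intervals of 6.20 to 21.0 and 12.2 to 30.9 overlap. CLDN1 was not called, although its log2 fold change of -5.89 (SE 2.12, DESeq2 adjusted p = 0.201, authors' deposited table) was larger in size than that of LSR.

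CLDN4 (ENSG00000189143, chromosome 7), one of the more abundant claudins of many epithelia, had normalized counts of 957.9 (control A), 4975 (control B), 878.4 (knockout A) and 974.9 (knockout B). Control A lay between the 2 knockouts and control B was 5.19-fold above control A. The knockout mean differed from control A by -0.05 log2 and from control B by -2.43 log2. CLDN4 was not called in the authors' deposited table (log2 fold change -1.68, SE 0.762, DESeq2 adjusted p = 0.338).

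CLDN7 (ENSG00000181885, chromosome 17) ran the other way. Its normalized counts were 416.2 and 348.7 in controls A and B and 508.2 and 521.9 in knockouts A and B. Both knockouts lay above both controls, 1.24-fold above control A and 1.48-fold above control B on their mean, and the controls were closer together than for any other of the 9 genes. The fold change of CLDN7 that the authors' deposited table gives was 0.43 log2 (SE 0.253, DESeq2 adjusted p = 0.469). CLDN7 overlaps ELP5 on the opposite strand in GENCODE 29, ELP5 had a base mean of 730.1, and whether reads were counted by strand is not given in the sources used here, so reads of these genes may not be told apart.

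F11R (ENSG00000158769, chromosome 1), which encodes junctional adhesion molecule A, had normalized counts of 115.4 (control A), 1141 (control B), 166.5 (knockout A) and 126.2 (knockout B). Both knockouts lay above control A and below control B, and control B was 9.89-fold above control A. The knockout mean differed by 0.33 log2 from control A and by -2.97 log2 from control B, a change of sign like that of OCLN. In the authors' deposited table F11R had a log2 fold change of -2.10 (SE 1.01, DESeq2 adjusted p = 0.367).

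Of the scaffolds under the strands, TJP1 (ENSG00000104067, chromosome 15), which encodes ZO-1, had normalized counts of 2251 and 4043 in controls A and B and of 1908 and 2215 in knockouts A and B. Both knockouts lay below both controls, although knockout B was close to control A, and the controls differed 1.80-fold. TJP1 was not called, with -0.61 log2 in the authors' deposited table (SE 0.385, DESeq2 adjusted p = 0.496). TJP3 (ENSG00000105289, chromosome 19), which encodes ZO-3, had normalized counts of 78.2 and 23.5 in controls A and B and of 113.3 and 101.4 in knockouts A and B. Both knockouts lay above both controls, 1.37-fold above control A and 4.57-fold above control B, and control A was 3.33-fold above control B. TJP3 was not called either, with 1.07 log2 in the authors' deposited table (SE 0.770, DESeq2 adjusted p = 0.554).

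Thus 3 of the 9 genes, LSR, MARVELD2 and TJP1, had both knockouts below both controls, as had 21.1% of the 16349 genes. For CLDN7 and TJP3 both knockouts lay above both controls, as for 24.1% of the 16349 genes. OCLN, CLDN1, CLDN4 and F11R overlapped between the groups. At an unadjusted p under 0.05 in the authors' deposited table, 6 of the 9 were lower (LSR, CLDN1, MARVELD2, OCLN, CLDN4 and F11R), beside 5.65% of 30831 genes. The contrast that gives these counts is the one on which the genes were selected, so they describe the 9 genes and test nothing.

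The median of the 9 genes shows the same division by control library. Their median difference of knockout mean minus control A was -0.05 log2, beside 0.0044 over all 16349 genes, and their median of knockout mean minus control B was -2.97 log2, beside 0.02. The difference of control B minus control A had a median of 3.16 log2 for the 9 genes and of -0.02 log2 for all 16349. The 9 differences from control A ran from -0.81 for LSR to 0.45 for TJP3. These comparisons share libraries with each other, so each is given by its own values and none supports another.

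**Figure D2:**
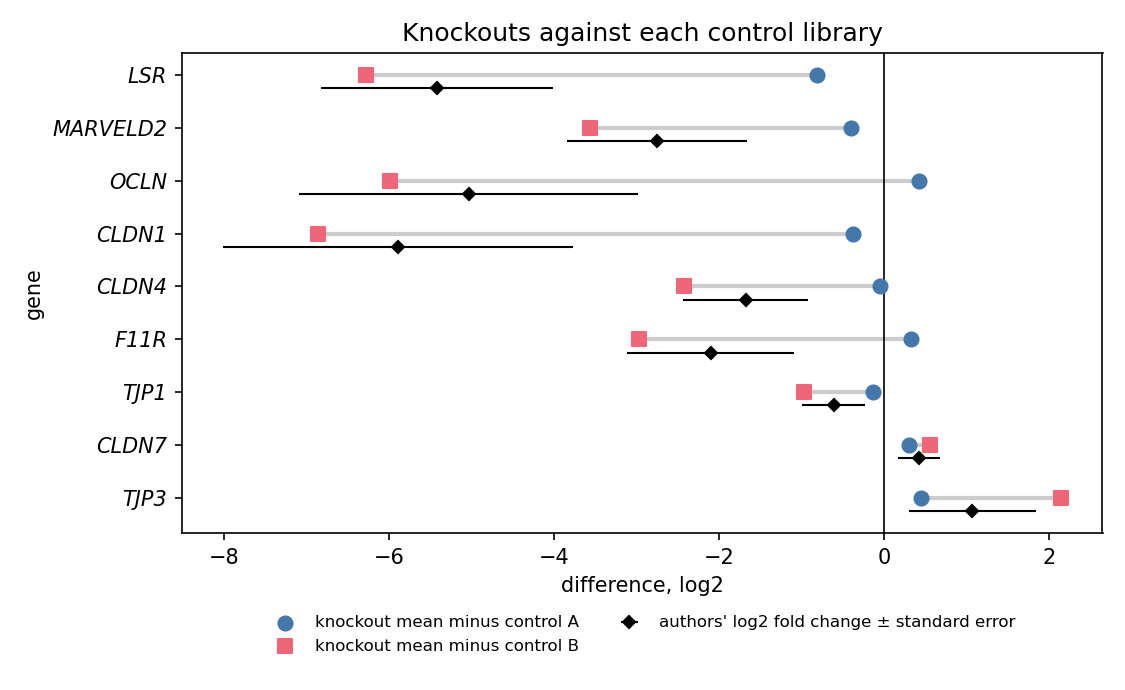
Log2 difference of the knockout mean from control A and from control B for each of the 9 genes, on log2(normalized count + 1). Against control A all points lie between -0.81 and 0.45, and against control B they run from -6.87 for CLDN1 to 2.14 for TJP3.

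**Figure D3:**
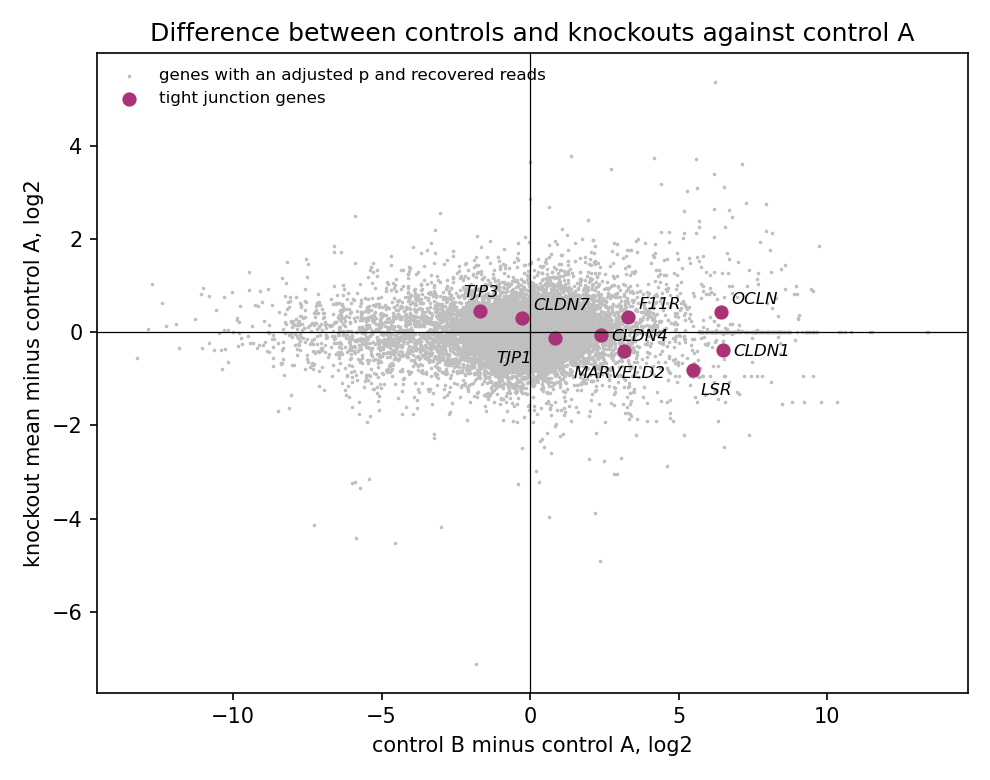
Control B minus control A (horizontal axis) and knockout mean minus control A (vertical axis), both log2, for 16349 genes in grey and the 9 tight junction genes in purple. OCLN, CLDN1 and LSR lie furthest to the right, at 6.42, 6.49 and 5.48, and all 9 genes stay within 1 log2 unit of control A on the vertical axis.

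On the recovered reads themselves, limma on log2(normalized count + 1) with all 4 libraries called none of the 9 genes and none of 24699 genes tested, while 508 genes had an unadjusted p under 0.05. LSR had a log2 difference of -3.55 and CLDN1 of -3.62 in that fit, both at a limma adjusted p of 0.723. With control A left out, limma called 8 of the 9 genes, all but TJP1, in a fit that called 33.2% of 24886 genes. With control B left out it called none of the 9 and no gene at all, with 3361 genes at an unadjusted p under 0.05. In those fits the adjusted p of LSR was 0.0250 without control A and 0.473 without control B, and a lone control library was assumed to vary as the knockouts did.

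Levels can be compared between genes only per length, here as normalized count per kilobase of the longest GENCODE 29 transcript. In control A the 3 highest were TJP1 at 283 per kilobase, CLDN4 at 230.1 and CLDN7 at 216, followed at a distance by F11R at 23.9 and TJP3 at 23.3. LSR at 9.89, MARVELD2 at 8.72, CLDN1 at 5.74 and OCLN at 5.51 formed the lowest group there. Neighbours within each of these groups lay close together, and with 1 library at each level the order inside a group was not tested.

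Both knockouts kept those groups. The 3 highest were CLDN7, TJP1 and CLDN4, between 211 and 279 per kilobase, with TJP1 and CLDN7 changing places between the knockouts. F11R and TJP3 lay between 26.1 and 34.4 per kilobase, and OCLN, MARVELD2, LSR and CLDN1 between 3.05 and 7.56. Within the middle and the lowest group the order also differed between the knockouts.

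Control B had another order. CLDN4 led at 1195 per kilobase, and CLDN1 at 543, TJP1 at 508.5, OCLN at 485 and LSR at 458 lay close together behind it. F11R followed at 236, CLDN7 at 181 and MARVELD2 at 79.9, and TJP3 was lowest at 7.01. CLDN1 thus stood among the lowest of the 9 genes in 3 libraries and next to the highest in control B.

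Promoter sequence was looked up in RefSeq (GRCh38.p14) for the 250 bases before each start site. It was there for 8 of the 9 genes, F11R having no entry, with 14 start sites between them. The E-box bound by SNAI and ZEB repressors of epithelial genes, CACCTG or CAGGTG on either strand, was found at 5 start sites of 4 genes, CLDN7, OCLN, TJP1 and TJP3. It occurs in 17.5% of 35116 promoters of this length. These windows are shown because they hold all copies in these promoters, with the E-box in capitals, read 5′ to 3′ on the gene's strand.
CLDN7, chr17:7262635-7262664, minus strand: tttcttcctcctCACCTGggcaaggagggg
CLDN7, chr17:7262596-7262625, minus strand: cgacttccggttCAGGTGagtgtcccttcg
CLDN7, chr17:7262479-7262508, minus strand: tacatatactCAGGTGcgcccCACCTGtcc
OCLN, chr5:69492502-69492531, plus strand: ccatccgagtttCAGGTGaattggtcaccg
OCLN, chr5:69492645-69492674, plus strand: tctaggacgcagCAGGTGggactcgcggcg
TJP1, chr15:29969120-29969149, minus strand: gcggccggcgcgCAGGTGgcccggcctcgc
TJP3, chr19:3721707-3721736, plus strand: gagacctggaggaggaagaggggCAGGTGc

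CLDN7 held 4 E-boxes before one start site, at 174, 135, 20 and 9 bases from it, and 0.464% of promoters hold at least 3. CLDN7 and TJP3, whose knockouts lay above both controls, and OCLN and TJP1, whose knockouts did not, all hold the motif. Whether the motif bears on the levels of the 8 genes looked up was not tested. LSR, MARVELD2, CLDN1 and CLDN4 have no match in these windows. The GC box, GGGCGG or CCGCCC, was found at 10 start sites of 7 genes, all of the 8 but LSR, and in 42.6% of promoters. The grainyhead-like site AACCGGTT was at none of the 14 (0.117% of promoters), and the AP-1 site, TGACTCA or TGAGTCA, at 1, of CLDN4 (4.20%). The promoter of CLDN1, the gene with the widest gap between the controls, is shown up to 29 bases before its start site with its 2 GC boxes in capitals.
CLDN1, chr3:190322476-190322696, minus strand: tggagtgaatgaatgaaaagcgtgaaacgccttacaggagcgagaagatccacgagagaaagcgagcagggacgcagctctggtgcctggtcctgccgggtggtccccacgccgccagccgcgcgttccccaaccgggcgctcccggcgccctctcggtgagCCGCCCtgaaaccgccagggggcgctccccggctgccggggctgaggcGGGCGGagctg

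The genes whose pattern over the 4 libraries lay nearest to that of LSR were sought among 11417 genes whose base mean was 100 or more, by Euclidean distance between centred log2(normalized count + 1) values. They were ENC1 at a distance of 0.18, TSPAN15 at 0.39, DKK3 at 0.47, MAGEA3 at 0.56 and SORL1 at 0.58. ENC1 had normalized counts of 32.7 (control A), 1712 (control B), 22.1 (knockout A) and 20.5 (knockout B). By the way they were chosen, all 5 shared with LSR a far higher level in control B than in the other 3 libraries. None of the 5 was called in the authors' deposited table, where DKK3 came closest with a DESeq2 adjusted p of 0.0626.

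The other tight junction genes, 64 in 4 lists, differed between the controls in both directions. The authors' deposited table gives 43 of them a DESeq2 adjusted p. None was called higher and 1, MPDZ, lower, beside 0.421% of 16629 genes called lower. Of 42 with recovered reads, 11 had both knockouts below both controls and 10 had both above, beside 21.1% and 24.1% of the 16349 genes. In control B, 3 (JAM3, MPDZ and MAGI2) were at least 4-fold above control A and 6 at least 4-fold below, beside 7.91% and 12.8%. Over the 42, the median difference of the knockout mean was -0.09 log2 from control A and 0.33 log2 from control B. For the 9 genes it was -0.05 and -2.97. These medians were not tested against each other because the 9 were selected on this contrast.

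MPDZ, which encodes the multi-PDZ scaffold MUPP1, was without reads in control A and both knockouts and had a normalized count of 745.5 in control B. Taking 3 reads over both knockouts as the floor, the control mean was at least 256-fold higher, and all of it came from control B. The authors' deposited table gives it a DESeq2 adjusted p of 0.000368. Like LSR, the other called junction gene, MPDZ had its highest level in control B, and unlike LSR it was not detected in control A.

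Of 20 other claudins, 8 had an adjusted p and none was called. CLDN12, the most abundant of them, had normalized counts of 1207 and 1777 in controls A and B and of 812.8 and 939.3 in knockouts A and B. Both knockouts of CLDN12 lay below both controls, at a DESeq2 adjusted p of 0.270 in the authors' deposited table. CLDN15 had 90.9 and 117.4 in controls against 88.5 and 79.8 in knockouts, CLDN18 had 90.0 and 20.1 against 83.2 and 72.3, and CLDN23 had 23.6 and 49.2 against 31.9 and 22.6. CLDN18 was therefore lowest in control B, opposite to CLDN1 and CLDN4.

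Of 10 other membrane proteins of the tight junction, 5 had an adjusted p and none was called. JAM3, a junctional adhesion molecule related to F11R, had normalized counts of 160.0 (control A), 1851 (control B), 153.2 (knockout A) and 127.2 (knockout B), the same order between the controls as F11R. The virus receptor CXADR and the endothelial adhesion molecule ESAM, of the same immunoglobulin-like family, were lowest in control B: CXADR had 918.8 and 539.8 in controls A and B, against 946.5 and 1042 in the knockouts, and ESAM 648.0 and 177.7 against 608.3 and 612.5. Reads of BVES, the fourth by base mean, were not recovered. MARVELD3, the relative of MARVELD2 and OCLN named after its values were seen, had 32.7 and 8.9 against 27.4 and 22.6, so the 3 genes of this family did not share 1 order.

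Of 19 scaffolds and cytoplasmic partners, 18 had an adjusted p and MPDZ alone was called. The angiomotin-like genes differed between themselves: AMOTL1 had normalized counts of 6724 and 912.0 in controls A and B against 5074 and 5508 in knockouts A and B, and AMOTL2 had 3365 and 3852 against 2406 and 2598. For AMOTL2 both knockouts lay below both controls, at a DESeq2 adjusted p of 0.210 in the authors' deposited table. ARHGEF18, an exchange factor for RhoA at junctions, was highest in control B, with 1614 and 4558 against 1536 and 1615, and YBX3, the ZO-1 associated transcription factor, was lowest there, with 2130 and 1596 against 2617 and 2556.

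CGN, which encodes the scaffold cingulin and was named after its values were seen, had normalized counts of 99.1 and 150.9 in controls A and B against 23.9 and 48.5 in knockouts A and B. The knockout mean of CGN differed by -1.51 log2 from control A and by -2.11 log2 from control B, and it was not called (authors' deposited table, DESeq2 adjusted p = 0.193). Its groups had the order of TJP1, with both knockouts below both controls, and not that of TJP3.

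Of 15 genes of the apical polarity complexes, 12 had an adjusted p and none was called. Their median difference of the knockout mean was -0.03 log2 from control A and 0.56 log2 from control B. MPP5, which encodes the Crumbs partner PALS1, had normalized counts of 7721 and 2101 in controls A and B against 4997 and 5776 in the knockouts, and PARD6B, of the PAR complex, had 827.9 and 2327 against 693.3 and 725.8. The former was lowest and the latter highest in control B. LIN7C had 4291 and 3153 against 3802 and 4205, and PRKCI, the atypical protein kinase C of the PAR complex, had 2881 and 1875 against 2843 and 3125. PARD6B was the 1 polarity gene with both knockouts below both controls, beside 21.1% of the 16349 genes. Of the 12, 4 had both above, beside 24.1%.

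The neighbouring junctions gave no called gene either. Over the 11 adherens junction genes that were tested, the median difference of the knockout mean was -0.03 log2 from control A and -0.57 log2 from control B, and over 9 desmosome genes it was 0.20 and 0.66 log2. AFDN, which encodes the actin-binding afadin, had normalized counts of 791.6 and 4976 in controls A and B and of 917.3 and 1003 in the knockouts, while CTNNB1, which encodes beta-catenin, had 7993 and 12072 against 8210 and 8025. CTNNA1 differed less between the controls, with 6442 and 7987 against 6782 and 6876. DSP, which encodes the desmosomal linker desmoplakin, had 8907 and 1968 against 10060.4 and 10314. PERP, the desmosome gene of higher base mean, was highest in control B, with 6151 and 10526 against 7171 and 8430. At least 4-fold above control A in control B were 3 of the 11 adherens junction genes and 0 of the 9 desmosome genes. At least 4-fold below were 1 and 2.

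E-cadherin was named after its values were seen. CDH1 had normalized counts of 12.7 (control A), 164.3 (control B), 3.5 (knockout A) and 2.2 (knockout B), so that both knockouts lay below both controls, and the authors' deposited table gives it a DESeq2 adjusted p of 0.0703. This is the order of LSR, at a lower level in every library.

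**Figure D4:**
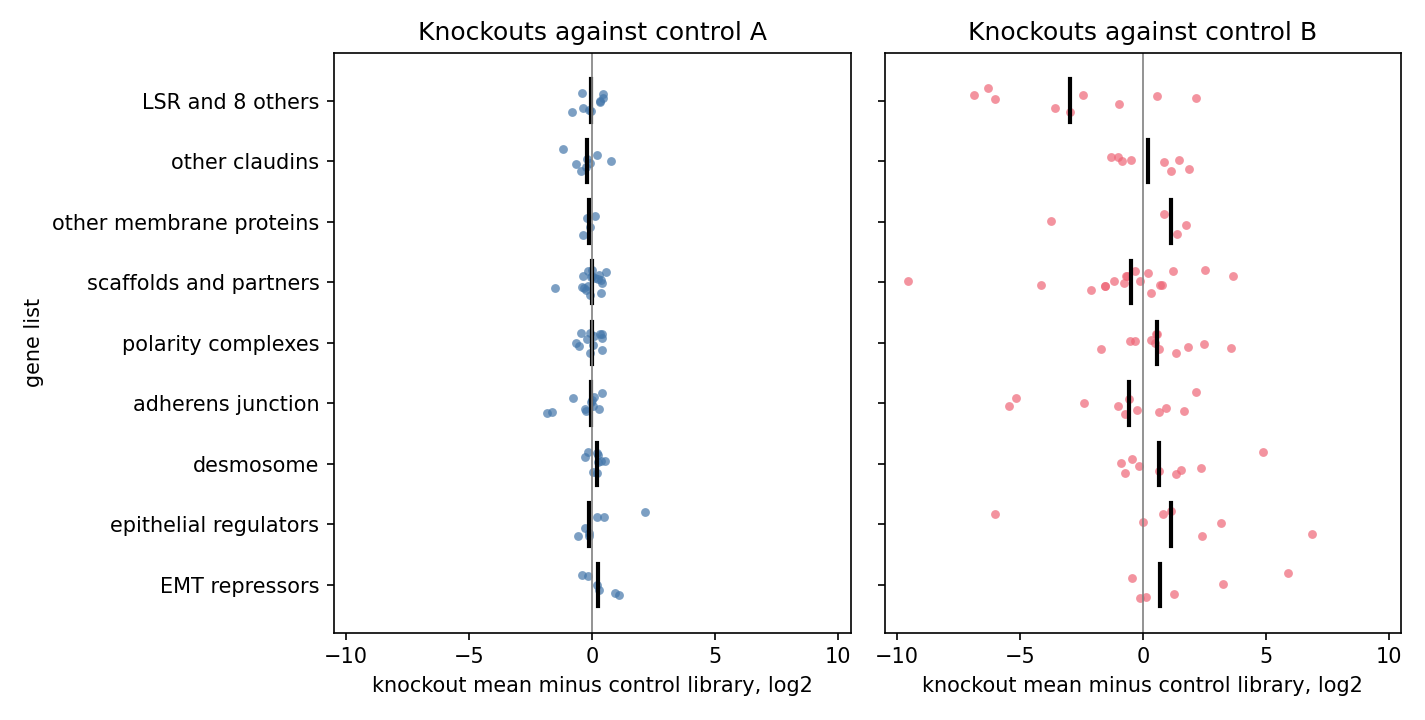
Log2 difference of the knockout mean from control A (left) and from control B (right) for genes with an adjusted p and recovered reads, 1 point a gene, in the 9 tight junction genes (top row, "LSR and 8 others") and 8 related lists, with list medians as black bars. On the left the medians lie between -0.23 and 0.24, and on the right the top row has a median of -2.97 while those of the other lists lie between -0.57 and 1.15.

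Regulators of epithelial identity and repressors of junction genes were read beside the 9 genes. Of 7 regulators with an adjusted p none was called: KLF4 had normalized counts of 1440 and 1301 in controls A and B against 1234 and 1417 in knockouts A and B, and KLF5, which was lowest in control B, had 650.7 and 64.8 against 574.6 and 606.1. GRHL3, a grainyhead-like factor named after its values were seen, was high in control B, with 0 and 279.4 against 3.54 and 3.24. Of the 7, 1 was at least 4-fold higher in control B than in control A and 3 at least 4-fold lower. Of the 6 repressors none was called: ZEB1 had 1032 and 819.3 against 838.5 and 979.2, and SNAI2 had 82.7 and 65.9 against 152.3 and 167.2. Both knockouts of SNAI2 lay above both controls, at a DESeq2 adjusted p of 0.199 in the authors' deposited table. ZEB2 ran the other way, with 267.2 and 269.4 against 182.4 and 213.5, and SNAI1 had 140.9 and 176.6 against 143.4 and 185.5. Of the 6 repressors, 3 had both knockouts above both controls, beside 24.1% of the 16349 genes. For 1, ZEB2, both lay below, beside 21.1%. TWIST1 and TWIST2, also named after their values were seen, were the 2 repressors at least 4-fold lower in control B, the opposite order to LSR, OCLN and CLDN1: TWIST1 had 27.3 and 0 against 51.4 and 67.9, and TWIST2 had 94.5 and 11.2 against 119.5 and 108.9. None of the 6 repressors was at least 4-fold higher in control B.

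Epithelial keratins were present in every library, as the label of a carcinoma line asks, but the 2 controls had different ones. KRT8 and KRT18 had base means of 14817 and 12890, too high for values per library. KRT7 had normalized counts of 3551 (control A), 108.4 (control B), 4000.4 (knockout A) and 3683 (knockout B), while KRT19 had 1.82, 2481, 0 and 0. Control B thus had the ductal keratin KRT19 and little KRT7, and the other 3 libraries had the reverse, along the same split as LSR, OCLN and CLDN1.

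Markers of other cell types were read in the same way, and none of those with an adjusted p was called. An adjusted p was there for 3 of 5 leukocyte, 2 of 6 fibroblast and 2 of 4 endothelial markers. It was there for 5 of 6 mesenchymal and 0 of 7 pancreatic markers, and the others could not be called. The 5 leukocyte markers summed to 41.8 and 1255 in controls A and B and to 45.2 and 36.7 in the knockouts, of which CD68 gave 1217 in control B, and PTPRC had no read in either control. The 6 fibroblast markers summed to 382.6 and 1856 in controls A and B and to 764.1 and 621.2 in the knockouts, led by COL1A1, and DCN had no read in control B. The 4 endothelial markers summed to 40.9 and 165.4 against 15.9 and 20.5, of which KDR gave 156.5 in control B, where CDH5 had no read. Of 7 pancreatic acinar and endocrine markers, 6 had no read in any library. The mesenchymal markers apart from VIM summed to 4807 and 686.3 in controls A and B and to 5213 and 5554 in the knockouts. Of these, FN1, S100A4, FAP and PDGFRB were lowest in control B, while SPARC was highest there, at 65.9 against 2.73 in control A. VIM, at a base mean of 20850, was too high for values per library. The authors' deposited table gives VIM a log2 fold change of -1.81 (SE 0.847, DESeq2 adjusted p = 0.351), lower in the knockouts. The part of these markers in the levels of the 9 genes was not tested. In bulk RNA fewer cells expressing a gene and less RNA per cell cannot be told apart.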

How the data were processed

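Total RNA of 2 control and 2 CFL1 knockout samples of PANC-1 cells was sequenced; cutadapt, FastQC, STAR, RSEM and build hg19 are named, without versions, in the submitters' processing notes. The authors deposited 1 DESeq2 result table. The authors' base mean is a signal: counts are divided by each library's size factor and averaged over the 4 libraries. Fold changes and their standard errors were deposited on the log2 scale. The Wald score was deposited as the fold change over its error. Both the unadjusted p-value and the Benjamini-Hochberg adjusted one were deposited. Calls are the authors' adjusted p under 0.05.

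Each library's whole reads were computed from the base means, which are sums of whole reads times 1 step per library. The steps came from genes with 1 read in 1 library, and each library's group from the sign of the authors' contrast. Solutions had to give the deposited fold change within 0.0001 log2, a condition dropped below a base mean of 10. Where a whole group was without reads, as for MPDZ, KRT19 and KDR, only the sign of the fold change had to match. Genes at or above 10000 were left out. This gave reads for 30537 of 30831 genes (99.0%), and none of 90 base means of the 9 genes shifted on purpose gave a solution. RSEM estimates counts, so these reads are rounded estimates. limma 3.58.1 (R 4.3.3) was fitted with a trended prior to log2(normalized count + 1), keeping genes whose mean reached 1. It was tested on simulated data whose libraries all varied alike, so that test does not cover a control library as different as control B. A sum with a pseudocount understates differences of low genes.

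The genes and lists were chosen with earlier results of these data known. Named genes are the 9, CFL1, called list genes, up to 4 genes of highest base mean in each list, and the 5 nearest to LSR, with exceptions stated. Alternatives were voom, a pseudocount of 0.1, a minimum mean of 10, library totals, other thresholds and leaving out each library. GENCODE 29 gave lengths and overlaps, and RefSeq the promoters. Python 3.11.15 with numpy 2.4.6, pandas 2.3.3, scipy 1.17.1 and matplotlib 3.10.9 was used.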

Additional observations from a re-analysis of the deposited data

How the results depend on the processing

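The count of the 9 genes called in the authors' table, 1 (LSR), became 0 at an adjusted p under 0.01, because the DESeq2 adjusted p of LSR is 0.0260. On recovered reads limma called 0 of the 9, and 0 to 8 with each library left out in turn, the 8 without control A. The number with both knockouts below both controls was 3, beside 21.1% of the 16349 genes. It was 3 to 7 with each library left out: 7 without control A, 5 without knockout B and 3 without control B. With 1 library left in a group the groups overlap less readily, for any gene. Shares over all genes in these settings were not worked out, so these counts are not read as a result about the 9 genes. With all libraries scaled by their totals, which shifts knockout minus control by 0.13 log2 for all genes, the number was 4, adding CLDN4. The share over all genes at that scaling was not worked out either. OCLN and F11R changed sign without control B: their log2 difference in the leave-one-out fits ran from -5.99 to 0.43 for OCLN and from -2.97 to 0.33 for F11R. In limma, a pseudocount of 0.1, a minimum mean of 10 and voom kept every direction and called none of the 9. In the authors' table LSR remained the 1 gene called with no independent filtering (adjusted p = 0.0482) and with base means of at least 10 (0.0270) or 100 (0.0232), all from DESeq2 p-values. The cause of these changes was not tested. No paired analysis was possible because the recovered libraries carry no replicate numbers. With 2 libraries a group and 12 to 27 reads of LSR in 3 libraries, small differences of low genes were not detectable.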
